A study of Mus musculus with 6 samples.

Results

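The ubiquitin-specific proteases (USPs) were followed in RAW 264.7 cells, an Abelson virus-transformed mouse macrophage line, after exposure to bisphenol AP (BPAP), a bisphenol related to bisphenol A. Members were the rows of the deposited gene table whose symbol starts with Usp and a digit, without Usp9y and without names that carry -ps, which gave 57 of 34745 genes. Of these, 55 are annotated as protein coding, and the other 2, Usp46os1 and Usp46os2, are transcripts opposite Usp46. One protein-coding member, Usp6nl, encodes a GTPase-activating protein for Rab GTPases and not a protease. Both groups were cells of the same line grown in DMEM with fetal bovine serum, 3 libraries labelled DMSO (the solvent control) and 3 labelled BPAP, and total RNA was sequenced in bulk. The sources used here do not give the BPAP dose or the exposure time. No label says whether the replicates were separate cultures, so each p-value covers the variation among these 6 libraries, which may be technical.

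Ubiquitin is attached to proteins by a cascade of E1, E2 and E3 enzymes, and deubiquitinases take it off again. USPs are the most numerous deubiquitinase family and use a catalytic cysteine to cut the bond between ubiquitin and its target or the next ubiquitin. Members differ in target and place: some recycle ubiquitin at the proteasome, some edit histones or DNA repair factors, some sort receptors at endosomes, and in macrophages several tune interferon, NF-kB and TGF-beta signalling.

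Library totals ranged from 11084705 to 13806559 counts. All 10 rows of 9 macrophage markers, among them Ptprc, Cd68 and Csf1r, had at least 508 counts in each library, and their summed level was 5048 to 5716 counts per 1000000 (CPM) in DMSO and 5592 to 6006 CPM in BPAP. Of these 10 rows, 4 passed the test described below as higher in BPAP and 2 as lower, Ptprc and Csf1r. Of all genes tested, 16.2% were higher and 15.5% lower. With the length and GC trend described below removed, 0 were higher and 1 lower, Csf1r, against 11.9% and 10.9% of all genes. Ptprc went from -0.64 to -0.065 (adjusted p = 0.608). The 5 fibroblast markers summed to at most 1.06 CPM, the 5 epithelial markers to at most 0.0813 CPM and the 5 lymphocyte markers to at most 0.164 CPM. In bulk RNA, fewer cells of a kind and less RNA per cell cannot be told apart.

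Of the 57 members, 43 passed the filter on low counts and were tested. In BPAP-treated cells 12 members, Usp6nl among them, were lower and 1, Usp18, was higher. The threshold was an adjusted p below 0.05 in edgeR's quasi-likelihood test, with p-values adjusted over all 11711 genes tested. Where members are called USP genes below, Usp6nl is included. The 12 make up 27.9% of the tested members, where 15.5% of all genes tested were lower, and the 1 makes up 2.33%, where 16.2% of all genes were higher. In either direction 30.2% of the members were called, against 31.7% of all genes, so the family's total share of calls was near the background. The changes were small, with log2 fold changes of 0.35 to 0.57 in size for the 13 genes called and none reaching a doubling or halving. The median log2 fold change (BPAP minus DMSO) was -0.21 over the 43 members and 0.02 over all genes. The 3 BPAP values did not overlap the 3 DMSO values in 26 members (49.0% of all genes did not overlap). They lay below in 23 members (53.5%, against 23.8% of all genes) and above in 3 members (6.98%, against 25.2%).

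USP genes have long merged exons, and the counts of calls differed when exon length and GC content were taken into account. Merged exons (each exonic base counted once) had a median of 7689 bases over the tested members against 4298 over all genes tested, and 38 of the 43 members were longer than that second median. When the dependence on exon length and GC content was removed within each library (called the trend below), 3 members were lower and 2 higher. Those are 6.98% and 4.65% of the 43, against 10.9% lower and 11.9% higher among the 11665 genes of that fit, and the members' median was -0.085. The 3 that were lower in both fits were Usp1, Usp8 and Usp19. The origin of the length trend was not tested.

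**Figure D1:**
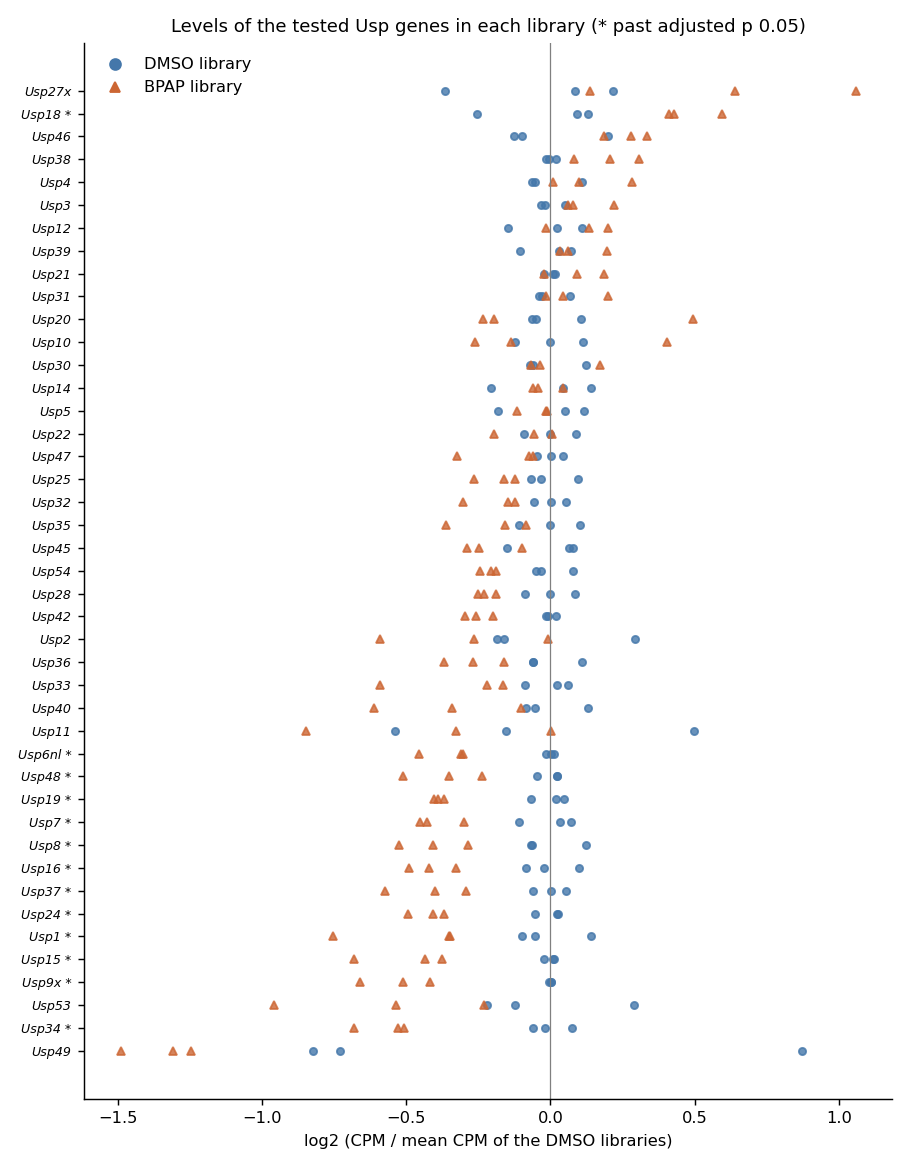
Level of each of the 43 tested USP genes in each library, as the log2 of its CPM over the mean CPM of the DMSO libraries (x axis), with genes ordered by log2 fold change (y axis). Circles are DMSO libraries, triangles are BPAP libraries, and an asterisk marks the 13 genes past an adjusted p of 0.05. In 23 genes every triangle lies left of every circle, and in 3 genes every triangle lies right of every circle.

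Promoters are shown for 1 member that was lower in both fits and for 1 that was not. Usp1 and Usp19 are named only. Of the 57 members, 43 have an entry in the RefSeq promoter table (build GRCm38.p6). These are not the 43 tested members, of which only 33 have an entry, with 34 entries in all. The 250 bases before the annotated start are printed 5′ to 3′ for Usp8, lower in both fits, and for Usp34, the member with the smallest p, whose change was no longer seen with the length and GC trend removed. Capitals mark matches on either strand to CCGGAA (the core bound by ETS factors), GGGCGG (the GC box bound by Sp1), CCAAT, TTTCCCGC or TTTGGCGC (E2F) and TGACGTCA (the cyclic AMP response element). Neighbouring or overlapping matches run together.
Usp8, plus strand, chr2:126707078-126707327: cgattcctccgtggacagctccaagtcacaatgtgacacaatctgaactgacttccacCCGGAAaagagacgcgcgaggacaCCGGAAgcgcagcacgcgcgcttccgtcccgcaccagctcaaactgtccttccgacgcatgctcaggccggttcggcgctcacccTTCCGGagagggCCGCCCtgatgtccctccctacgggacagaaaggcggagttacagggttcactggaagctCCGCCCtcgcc
Usp34, plus strand, chr11:23306645-23306894: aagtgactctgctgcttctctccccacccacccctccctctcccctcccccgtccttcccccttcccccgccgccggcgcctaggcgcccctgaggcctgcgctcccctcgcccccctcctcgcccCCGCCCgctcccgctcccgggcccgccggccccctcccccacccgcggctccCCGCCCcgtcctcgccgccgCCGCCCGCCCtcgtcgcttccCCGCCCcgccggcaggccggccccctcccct
The Usp8 window holds 3 ETS cores and 2 GC boxes. The Usp34 window is 82.0% G and C and holds 5 GC boxes and no ETS core. Over all 32851 promoters of that table, 12.0% hold the ETS core, 32.7% the GC box, 33.8% CCAAT, 1.3% an E2F match and 1.55% the cyclic AMP element. Of the 34 promoters of tested members, 10, 25, 5, 1 and 0 hold them (29.4%, 73.5%, 14.7%, 2.94% and 0%). The whole table includes genes that did not pass the filter on low counts, whereas these members did. The sets are therefore unlike, and the shares do not show a trait of the family. A match describes the letters and does not show that a factor binds there.

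Among members that act on DNA damage factors and p53, 3 of 8 were lower and none was higher, where 15.5% of all genes tested were lower and 16.2% higher. Without the trend 1 of 8 was lower, where 10.9% of all genes were. Usp1 removes ubiquitin from FANCD2 and PCNA in DNA repair (chr4:98923810-98935543, GRCm38). It was at 82.5, 69.8 and 72.0 CPM in DMSO libraries 1 to 3 and at 58.8, 44.3 and 58.6 CPM in BPAP libraries 1 to 3. All BPAP values were below all DMSO values, with BPAP 2 the lowest. The log2 fold change was -0.47 (SE 0.13, adjusted p = 0.0176), a fall from 74.8 ± 6.76 to 53.9 ± 8.30 CPM (SD, n = 3). Usp1 has only 3733 exonic bases, and without the length and GC trend it was at -0.50 (adjusted p = 0.0125). Without DMSO 1 its adjusted p was 0.0563.

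Usp7, which deubiquitinates both p53 and its E3 ligase Mdm2, lies at chr16:8689595-8792308. Its level was 131, 127 and 115 CPM in DMSO and 91.0, 101 and 92.5 CPM in BPAP. The groups did not overlap, and the log2 fold change was -0.39 (SE 0.09, adjusted p = 0.00986). Usp24, reported to stabilise p53 and the repair factor DDB2, was at 171, 162 and 171 CPM in DMSO and 130, 119 and 127 CPM in BPAP. Its BPAP values were again all below the DMSO values (log2 fold change -0.42, SE 0.08, adjusted p = 0.00461). With the trend removed the values of Usp7 and Usp24 were -0.22 and -0.19 (adjusted p = 0.124 and 0.0701). The other 5 members of this group, Usp10, Usp11, Usp28, Usp45 and Usp47, did not pass and ranged from -0.34 in Usp11, which has at most 24 counts in a library, to 0.03 in Usp10, on the log2 scale. Usp10, a regulator of p53, was at 51.6 CPM in BPAP 2 against 35.5 and 32.5 CPM in the other BPAP libraries. DMSO values of Usp10, from 35.8 to 42.2 CPM, lay between these.

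Members that act on histones or the cell cycle counted 3 lower genes among 8 tested, beside 15.5% of all genes. Once the trend was taken out, 0 were lower and 1 was higher, beside 10.9% and 11.9% of all genes. Usp37, which stabilises cyclin A, was at 90.3, 83.5 and 87.1 CPM in DMSO and 65.9, 58.5 and 71.0 CPM in BPAP. No BPAP value reached the lowest DMSO value, and the log2 fold change was -0.42 (SE 0.10, adjusted p = 0.0103). Usp16, a histone H2A deubiquitinase needed for mitosis, was at 37.1, 32.6 and 34.1 CPM in DMSO and 27.6, 24.6 and 25.8 CPM in BPAP. Its groups were also apart (log2 fold change -0.41, SE 0.11, adjusted p = 0.0153), and 2.03% of its exonic bases lie opposite Cct8, which has a mean of 3120 counts against 376 for Usp16. Usp48, a nuclear enzyme that acts on histone H2A, was at 134, 128 and 134 CPM in DMSO and 112, 92.7 and 103 CPM in BPAP. Its groups did not overlap (log2 fold change -0.36, SE 0.09, adjusted p = 0.0155), and without DMSO 3 its adjusted p was 0.0510. None of these 3 passed with the length and GC trend removed, at -0.11 for Usp37, -0.14 for Usp16 and -0.21 for Usp48.

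Usp3, another H2A deubiquitinase, did not pass as counted. It was at 74.8, 70.6 and 71.3 CPM in DMSO and 75.4, 76.3 and 84.1 CPM in BPAP. The BPAP values were just above the DMSO values, at 0.12 on the log2 scale (adjusted p = 0.316). With the length and GC trend removed it was 0.24 and passed narrowly (adjusted p = 0.0495). Usp22, the deubiquitinase of the SAGA coactivator complex, and Usp21 were at -0.08 and 0.09 (adjusted p = 0.526 and 0.518). Usp49, a histone H2B deubiquitinase, had 36, 45 and 152 counts in DMSO 1 to 3 and 29, 25 and 30 counts in BPAP 1 to 3. Of its exonic bases, 51.2% are shared with Gm20517 on the same strand. DMSO 3 stood apart from all other libraries, and the log2 fold change of -1.36 did not pass (SE 0.49, adjusted p = 0.0707). It was -0.57 without DMSO 3 (adjusted p = 0.127), and it passed in the fits without DMSO 1 and without DMSO 2 (adjusted p = 0.0414 and 0.0401). DESeq2 called it too (adjusted p = 0.0127). Usp27x, an X-linked paralogue of Usp22, had at most 31 counts in a library and a log2 fold change of 0.66 (adjusted p = 0.144).

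In the membrane traffic and receptor group, 3 of 9 members were lower (15.5% of all genes). With the trend removed 1 was lower and 1 higher (10.9% and 11.9% of all genes). Usp8 acts at endosomes, where it binds STAM proteins and sorts ubiquitinated receptors (chr2:126707328-126759297). It was at 175, 154 and 154 CPM in DMSO and 132, 112 and 122 CPM in BPAP. The groups were apart (log2 fold change -0.40, SE 0.10, adjusted p = 0.0113). Usp8 has 4193 exonic bases, close to the median of all genes tested, and its log2 fold change was -0.42 with the trend removed (adjusted p = 0.0096). Usp9x, a very long X-linked gene whose product stabilises MCL1 among other proteins (chrX:13071498-13173328), was at 222, 220 and 222 CPM in DMSO. In BPAP it was at 165, 140 and 155 CPM. This was among the clearest separations, with an SD of 0.851 CPM in DMSO and 12.8 CPM in BPAP, and the log2 fold change was -0.53 (SE 0.09, adjusted p = 0.00236). With the trend removed it was -0.02 (adjusted p = 0.843). Usp6nl, the Rab GTPase-activating protein gene, was at 95.3, 97.2 and 96.4 CPM in DMSO and 78.0, 70.3 and 77.7 CPM in BPAP. Its groups did not overlap (log2 fold change -0.35, SE 0.09, adjusted p = 0.0119), and with the trend removed it was at -0.22 (adjusted p = 0.0579).

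The other 6 members of that group, Usp2, Usp12, Usp20, Usp32, Usp33 and Usp46, did not pass and ranged from -0.31 in Usp33 to 0.27 in Usp46. Usp46, one of the enzymes that need WDR48 for full activity, was at 12.2, 12.0 and 15.0 CPM in DMSO and 15.9, 16.5 and 14.8 CPM in BPAP. Its values overlapped (adjusted p = 0.160), but without the length and GC trend it was at 0.47 and passed (SE 0.14, adjusted p = 0.0346). Usp20 was at 29.8 CPM in BPAP 2 and at 18.0 and 18.4 CPM in the other BPAP libraries, on both sides of the DMSO range of 20.2 to 22.7 CPM.

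**Figure D2:**
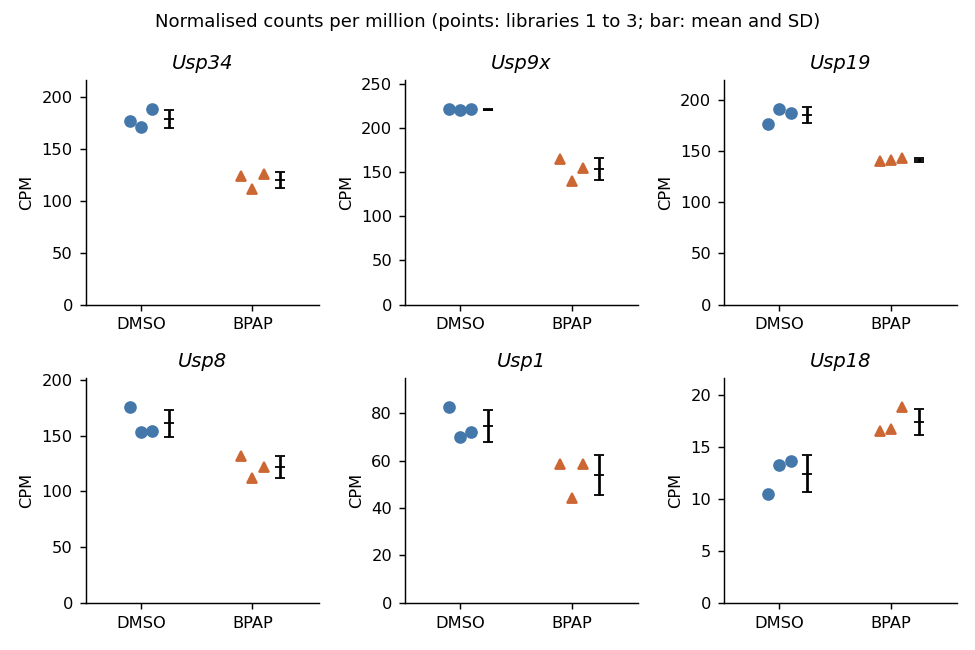
Normalised CPM (y axis, from 0) of Usp34, Usp9x, Usp19, Usp8, Usp1 and Usp18 in the DMSO and BPAP libraries (x axis). Points are libraries 1 to 3 and the black bars are the mean and SD; in the first 5 genes the BPAP points lie below the DMSO points, and in Usp18 they lie above.

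Of 6 cytokine and Wnt signalling members, 2 were lower and 1 higher (33.3% and 16.7%, against 15.5% and 16.2% of all genes). With the trend removed none was called in either direction, where 10.9% of all genes were lower and 11.9% higher. Usp18 removes the ubiquitin-like modifier ISG15 from proteins and holds back the type I interferon receptor (chr6:121245906-121270917). It was at 10.5, 13.3 and 13.7 CPM in DMSO and 16.6, 16.8 and 18.8 CPM in BPAP. All BPAP values were above all DMSO values, DMSO 1 was the lowest, and the log2 fold change was 0.48 (SE 0.14, adjusted p = 0.0267). The call did not hold without DMSO 1 (adjusted p = 0.0927), DMSO 2 (0.0556) or BPAP 3 (0.0784), nor with the length and GC trend removed (log2 fold change 0.31, adjusted p = 0.110). Isg15 itself was at 1.10, 0.625 and 0.985 CPM in DMSO and 4.31, 2.58 and 4.18 CPM in BPAP. Its groups were apart, and it rose by 2.03 on the log2 scale (adjusted p = 0.00178).

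Usp34 acts on axin in the Wnt pathway and has the longest merged exons among the tested members, 18453 bases (chr11:23306895-23490560). It was at 176, 171 and 188 CPM in DMSO and 124, 112 and 126 CPM in BPAP. These groups lay well apart, and the log2 fold change of -0.57 had the smallest p of the family (SE 0.09, adjusted p = 0.00167). With the length and GC trend removed it was at 0.0029 (adjusted p = 0.983). Part of Usp34, 11.6% of its exonic bases, lies opposite Ahsa2, which has a mean of 224 counts against 1864 for Usp34. Usp15, which acts on receptor-regulated SMADs of the TGF-beta pathway, was at 75.5, 73.6 and 75.4 CPM in DMSO and 57.7, 46.7 and 55.4 CPM in BPAP. The BPAP values were all lower (log2 fold change -0.49, SE 0.10, adjusted p = 0.00595). With 16599 exonic bases it too moved to near zero with the trend removed, at -0.03 (adjusted p = 0.831). Usp4, Usp25 and Usp38 did not pass, at 0.14, -0.18 and 0.20. The BPAP values of Usp38, a regulator of TBK1 in antiviral signalling, were all above its DMSO values, at 34.1 to 39.8 against 31.8 to 32.6 CPM (adjusted p = 0.151).

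In the organelle and RNA group, 1 of 5 members was lower, with or without the trend. Of all genes, 15.5% were lower as counted and 10.9% with the trend removed. Usp19, which has a form anchored in the endoplasmic reticulum membrane (chr9:108490602-108502337), was at 177, 191 and 188 CPM in DMSO and 140, 141 and 144 CPM in BPAP. The BPAP values were close to one another and far below the DMSO values (log2 fold change -0.39, SE 0.08, adjusted p = 0.00579). It stayed lower with the length and GC trend removed, at -0.31 (SE 0.07, adjusted p = 0.0165). Usp30, of the mitochondrial outer membrane, and Usp39, a spliceosome component, were at 0.03 and 0.10 (adjusted p = 0.867 and 0.442). Usp36, which is nucleolar, and Usp42 did not pass, at -0.26 and -0.25 (adjusted p = 0.0772 and 0.0835).

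The enzymes that recycle ubiquitin did not pass in either direction. Usp14 binds the proteasome and trims ubiquitin from its substrates, and it was at 122, 145 and 155 CPM in DMSO and 135, 137 and 145 CPM in BPAP. Its groups overlapped fully (log2 fold change -0.02, SE 0.10, adjusted p = 0.899). With the length and GC trend removed Usp14 was at 0.33 and did not pass (SE 0.11, adjusted p = 0.0686). Of its exonic bases, 26.0% lie opposite Thoc1, which has a mean of 370 counts against 1746 for Usp14. Usp5, which takes apart free ubiquitin chains, was at -0.05 (SE 0.10, adjusted p = 0.736), and its paralogue Usp13 had 0 counts. Of the less described members, Usp31, Usp35, Usp40, Usp53 and Usp54 were tested and did not pass, at 0.08, -0.20, -0.33, -0.54 and -0.21. Usp53 was nearest to the threshold (SE 0.19, adjusted p = 0.0601) and had its lowest value, 14.6 CPM, in BPAP 2.

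Of the 12 members lower in BPAP, 10 had their lowest value in BPAP 2. The 12 genes all kept a negative log2 fold change when any 1 library was left out, and 10 of them, all but Usp1 and Usp48, were called in each of those 6 fits. The family's summed counts were 0.322%, 0.325% and 0.336% of each DMSO library and 0.279%, 0.265% and 0.275% of each BPAP library. Those shares do not overlap between the groups, and the highest BPAP share belongs to BPAP 1.

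Paralogues were set side by side, without a test of the difference between them. In the group Usp4, Usp11 and Usp15, only Usp15 was called, at -0.49 against 0.14 in Usp4 and -0.34 in the sparsely counted Usp11. The relatives Usp7 and Usp47 were at -0.39 and -0.15, with Usp7 called and Usp47 not (adjusted p = 0.256), and they have 7766 and 13755 exonic bases. Usp16 and Usp45 were at -0.41 and -0.21, and only Usp16 was called. Usp25 and Usp28 were at -0.18 and -0.22, Usp12 and Usp46 at 0.11 and 0.27, Usp20 and Usp33 at 0.06 and -0.31, and Usp53 and Usp54 at -0.54 and -0.21, with none called. These values and calls are from the counts as deposited. With the length and GC trend removed, Usp15, Usp7 and Usp16 were not called (adjusted p = 0.831, 0.124 and 0.292). Usp46 was called as higher in that fit (adjusted p = 0.0346). Usp51, a further relative of Usp22 and Usp27x, had 0 counts.

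**Figure D3:**
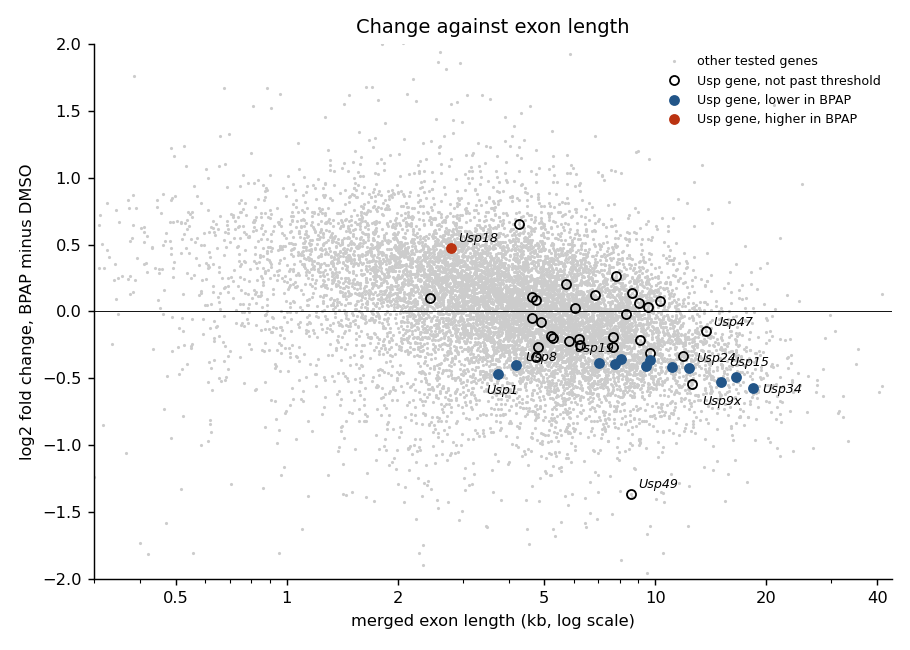
Log2 fold change (y axis, BPAP minus DMSO) against merged exon length (x axis, kilobases on a log scale) for the tested genes with an exon length (grey), with USP genes as circles: blue lower, red higher, open not past an adjusted p of 0.05. Another 39 genes lie outside the axes. The longest members, Usp34, Usp15 and Usp9x, are among the lowest. The called members Usp1 and Usp8 are short among the USP genes. They sit somewhat under the median length of all genes tested (4298 bases) and below most grey points.

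Across the 43 tested members the log2 fold change fell with exon length, with a Spearman rho of -0.46, and it rose with GC content, with a rho of 0.38. Over the 11665 genes with a length these were -0.40 and 0.25. Genes share the same 6 libraries and are not independent replicates, so these are descriptions. The 21 longest members, from 7766 to 18453 bases, held 9 lower and 0 higher genes with a median log2 fold change of -0.35. The 21 shortest, from 2445 to 7680 bases, held 3 lower genes and 1 higher one with a median of -0.18. With the trend removed the medians were -0.07 and -0.11, the rho with length over the members was 0.12, and 32 of the 43 members had moved upwards. Of the 12 lower genes, 3 passed in that fit and 9 did not, and Usp34, Usp15 and Usp9x lay within 0.03 of zero.

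**Figure D4:**
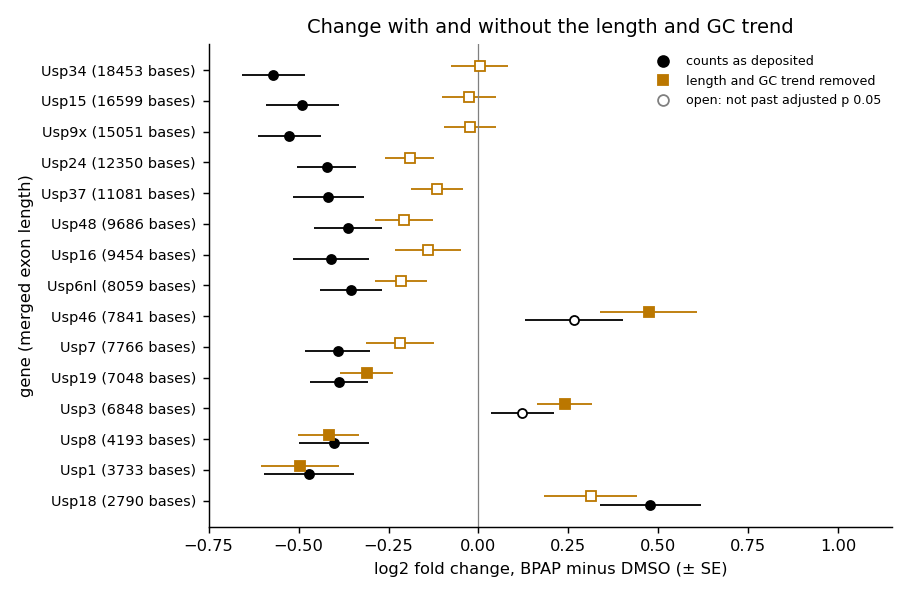
Log2 fold change ± SE (x axis) of the 15 USP genes called in either fit, ordered by exon length (y axis, in bases), from the counts as deposited (black circles) and with the trend in exon length and GC removed (orange squares). Open symbols did not pass an adjusted p of 0.05; the values of Usp1, Usp8 and Usp19 stay filled and negative in both, and those of the 3 longest genes move to near 0.

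Levels between genes were compared as CPM per kilobase of merged exon. Merged exons join all annotated transcripts of a gene, so their length can exceed that of the transcript the cells make. The order of genes below depends on that length. Usp22 and Usp39 had the highest means over the 6 libraries, 38.5 and 38.1 CPM per kilobase, and their ranges of 34.6 to 42.1 and 34.2 to 42.2 overlap. Usp8 followed at 33.7 (26.7 to 41.8), and over the 6 libraries its range overlaps both. In the BPAP libraries alone it was at 26.7 to 31.5, below every BPAP value of Usp22 and Usp39. Usp5, at 23.6 (21.1 to 26.0), and Usp19, at 23.2 (19.9 to 27.2), came next. Their order depended on the group, with Usp19 above Usp5 in each DMSO library and below it in each BPAP library. Usp34 was at 8.10 CPM per kilobase despite its high count, since its merged exons are long. Usp49, Usp27x and Usp11 were the lowest tested members, at 0.474, 0.365 and 0.250 CPM per kilobase.

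The remaining 14 members were not tested. Of these, 13 had 0 counts in each library: Usp13, Usp26, Usp29, Usp43, Usp44, Usp51, the 5 Usp17-like genes (Usp17la to Usp17le), Usp46os1 and Usp46os2. A count of 0 allows up to 0.217 to 0.271 CPM, depending on the library (3 counts, for counting error only). Usp50 had at most 10 counts in a library. The Usp17-like genes are close copies of one another, and the sources used here do not say how reads that match several copies were counted.

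Other genes of the ubiquitin system were read from fixed lists. Of 33 tested deubiquitinases of other families, 6 were higher (18.2%, near the 16.2% of all genes) and 8 lower (24.2%, against 15.5%), with a median log2 fold change of 0.06. After removal of the trend 6 were higher and 1 lower (18.2% and 3.03%, against 11.9% and 10.9% of all genes). Otulin, which cuts linear ubiquitin chains, rose by 0.85 on the log2 scale, from 24.9 ± 2.21 to 45.0 ± 8.41 CPM (SD, n = 3, adjusted p = 0.0024). Otub2, Uchl3 and Stambpl1 rose by 0.62, 0.40 and 0.36 (adjusted p = 0.0111, 0.0137 and 0.0154). These 4 also passed with the length and GC trend removed. On the lower side stood Otud4 at -0.44, Zufsp at -0.72, the histone H2A deubiquitinase Mysm1 at -0.50 and Yod1 at -0.45 (adjusted p = 0.00501 to 0.00874). None of these passed with the trend removed, and the 1 gene of the list that was lower there was Tnfaip3, which encodes the NF-kB inhibitor A20 (chosen after its value was seen). Tnfaip3 was at -0.74 as counted and -0.65 with the trend removed (adjusted p = 0.0138 and 0.0328).

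Of 31 tested E2 ubiquitin-conjugating genes, 6 were higher (19.4%, near the 16.2% of all genes) and 2 lower (6.45%, against 15.5%). Their median was 0.13. These counts were 7 and 3 with the trend removed (22.6% and 9.68%, against 11.9% and 10.9% of all genes). Ube2w, Ube2j1, Ube2d2a and Ube2q1 rose by 0.50, 0.36, 0.36 and 0.33 (adjusted p = 0.00483 to 0.0240). Ube2t, the E2 of the Fanconi anaemia pathway that monoubiquitinates FANCD2, was at 75.2, 79.2 and 87.9 CPM in DMSO and 55.8, 40.4 and 59.1 CPM in BPAP. It was lower at -0.64 (adjusted p = 0.00732), as was Ube2q2 at -0.72 (adjusted p = 0.0175), and both passed with the trend removed. Among genes for ubiquitin and its E1 enzymes, Rps27a and Ubb, which encode ubiquitin precursors, rose by 0.34 and 0.37 (adjusted p = 0.0152 and 0.0175). Uba6, an E1 gene, was lower at -0.48 (adjusted p = 0.00515). With the trend removed these 3 genes did not pass.

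Of 27 tested partners and substrates of USPs, 2 were higher (7.41%, against 16.2% of all genes) and 6 lower (22.2%, against 15.5%). Their median was -0.12. The counts became 4 and 5 with the trend removed (14.8% and 18.5%, against 11.9% and 10.9% of all genes). Fancd2, the Fanconi anaemia substrate of USP1, was at 39.5, 42.1 and 44.1 CPM in DMSO and 20.3, 19.0 and 26.1 CPM in BPAP. Its groups were far apart, and the log2 fold change was -0.95 (SE 0.13, adjusted p = 0.00117). Wdr48, the activating partner of USP1, USP12 and USP46, was lower at -0.33 (adjusted p = 0.0130), while Pcna, the other USP1 substrate, was at 0.04 (adjusted p = 0.787). With the length and GC trend removed Fancd2 passed at -0.80 (adjusted p = 0.0031) and Wdr48 did not (-0.18, adjusted p = 0.0988). Atxn7, which ties the SAGA deubiquitinase module of USP22 to its complex, was at -0.47, and Tgfbr1 at -0.41 (adjusted p = 0.00647 and 0.0289). Atxn7 also passed without the trend, at -0.39, and Tgfbr1 did not, at -0.24 (adjusted p = 0.0141 and 0.142). Tomm20, of the mitochondrial outer membrane and a substrate of USP30, rose from 60.8 ± 2.95 to 102 ± 2.26 CPM (SD, n = 3), by 0.74 on the log2 scale (adjusted p = 0.000557).

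**Figure D5:**
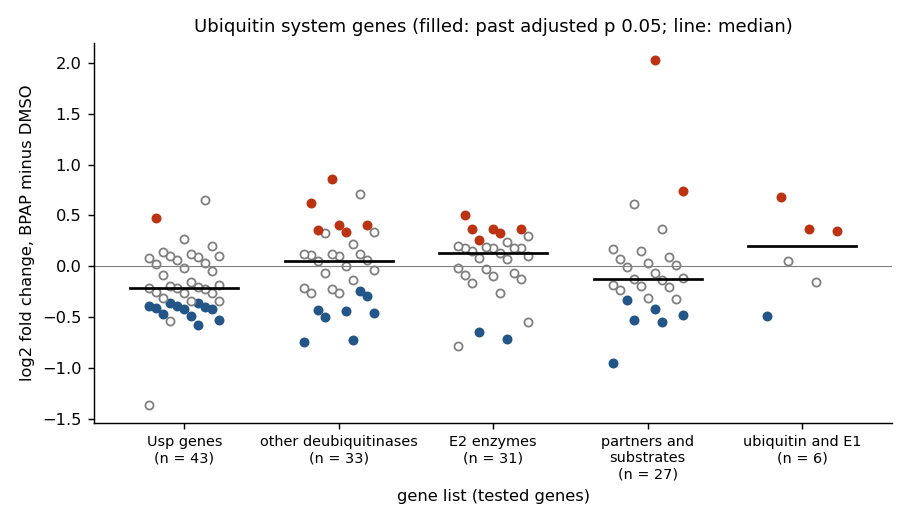
Log2 fold change (y axis, BPAP minus DMSO) of each tested gene in 5 lists of the ubiquitin system (x axis); filled points passed an adjusted p of 0.05, red higher and blue lower, and the black line is the list's median. The USP genes, with Usp6nl included, have 12 blue points and 1 red one, and the E2 enzymes 2 blue and 6 red.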

How the data were processed

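RNA-seq libraries of RAW 264.7 cells (3 DMSO, 3 BPAP) were analysed from the deposited table of 34745 genes. Per the submitters' processing notes, HISAT2 2.0.4, StringTie 1.3.3b and edgeR were used with GRCm38, in roles that are not stated. The deposited counts are whole numbers per gene, per the file headers. The deposited FPKM values, named so per the file headers, served 1 alternative, on log2(FPKM + 1) with a mean of at least 1. The strand setting is not given in the sources used here, so overlapping genes cannot be told apart.

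Counts were filtered by edgeR's default (11711 genes left), scaled by TMM and tested with edgeR 4.0.16 quasi-likelihood fits in R 4.3.3, with treatment as the only term. Adjusted p-values are Benjamini-Hochberg over all genes tested, 2-sided, with a threshold of 0.05. CPM are TMM-normalised. Exon length came from GENCODE M21, and GC content from its transcripts. Their trend was removed as offsets from lowess curves of span 0.3. Fits were checked on simulated counts. Other alternatives were DESeq2 1.42.0, its size factors, upper quartile scaling, no filter, limma 3.58.1 (voom, and trend on FPKM), a replicate block, and leaving out 1 library at a time. The most similar replicates, DMSO 2 and DMSO 3, still differed beyond sampling noise (chi-square per degree of freedom 6.64).

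Members, gene lists and tests were chosen with earlier results of these data known, and the promoter motifs with the promoter sequences known. By rule, each member past the threshold is named, with values per library for the 14 of smallest p among them (13 passed), Usp18 and Usp14. Members of paralogue groups are named with their change, and of other lists up to 4 per direction with the smallest p among those called. Usp3, Usp10, Usp20, Usp38, Usp46, Usp49, Usp53, Pcna, Tnfaip3 and Isg15 received further values after they were seen. Protein sequences were not used here. One gene that the rule names is not reported here.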

Additional observations from a re-analysis of the deposited data

How the results depend on the processing

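DESeq2 size factors, upper quartile scaling, limma-voom and limma-trend on FPKM left each USP call as it was (Usp11, Usp27x and Usp49 were not tested on FPKM). No filter on low counts and the DESeq2 test each gave 14 lower members. After the trend with exon length and GC was removed, 2 members were higher and 3 lower, with a median of -0.085; other deubiquitinases had 1 lower gene, partners and substrates 4 higher, and ubiquitin and E1 genes 1 higher and 0 lower. With the replicate block added to that fit, 3 members were higher and 3 lower, the median was -0.084, and the other counts were again 1, 4, 1 and 0. Usp34 reversed to 0.0029 and, with the block, to 0.0038, and Usp14 to 0.33 with the block (adjusted p = 0.0205). The origin of these moves was not tested. The replicate block alone gave 16 lower and 1 higher. Deviations of same-numbered libraries correlated at 0.101, 0.0542 and 0.00985, and those of differently numbered libraries at -0.0863 to 0.0454. These values do not settle whether the numbers are pairs. The numbers were not taken as pairs because no label says that they pair cultures. Without 1 library, 11 to 14 members were lower and 0 to 1 higher. In those fits the higher and lower counts were 3 to 5 and 5 to 9 for other deubiquitinases, 3 to 6 and 1 to 2 for E2 genes, 2 to 3 and 3 to 5 for partners, 1 to 3 and 1 for ubiquitin and E1, and 1244 to 1654 and 1235 to 1660 for all genes. The 0 came without DMSO 1, DMSO 2 or BPAP 3. At this depth, members with few counts such as Usp11 and Usp27x had SEs of 0.37 and 0.32, and changes of the size seen in other members were not detectable in them.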
